A study of Homo sapiens with 8 samples.

Results

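Ago2, the Argonaute protein that carries a miRNA to its target, left exactly 1 listed peak in the 3' UTR of 2046 transcripts. These lone 3' UTR peaks were the regions examined. They were selected by a count: a peak was a member when it was annotated to a 3' UTR and no other 3' UTR peak was listed for its transcript. The members were 2046 of 22506 listed peaks (9.09%) and 2046 of 12955 3' UTR peaks (15.8%). They stood on 46.9% of the 4362 transcripts with any 3' UTR peak, while 1778 transcripts had 2 to 5 such peaks and 538 had 6 or more. The count of peaks depends on which stretches gathered enough reads to be listed, so the read numbers of members against other peaks are given as a description, with no test.

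The peaks come from crosslinking and immunoprecipitation of Ago2 followed by sequencing of the bound RNA (CLIP). The emetine group was 293S cells (a subline of HEK293, an embryonic kidney line) given 20 μg/mL emetine for 60 minutes, and the control group was 293S cells with no treatment. Each group was 1 culture that was divided for 3 CLIP libraries, each with an anti-Ago2 antibody from a different manufacturer, and 1 RNA-seq library, which makes 8 samples in all. Emetine is an alkaloid that blocks the elongation step of protein synthesis. The comparison asks how contacts between Ago2 and mRNAs differ after this block. Since the 3 libraries of a group share a culture, every p-value measures the spread between aliquots and antibodies, and 1 treated and 1 untreated culture are compared. As bulk libraries, they cannot tell fewer cells with an RNA from less RNA per cell.

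Argonaute proteins hold a short miRNA and expose its seed, the bases from 2 to 8, which pairs with a complementary stretch that usually lies in the 3' UTR of an mRNA. A bound Argonaute recruits GW182 proteins and, through them, the deadenylases, which lowers translation and shortens the life of the mRNA. A 3' UTR may offer several such contacts or a single one, and CLIP records where the protein was crosslinked without naming the miRNA that led it there.

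The 8 miRNAs below were the ones whose seed matches were searched in the 3' UTRs of the members. They stand for families that are widespread in human cells, among them the miR-17, miR-19 and miR-92 families, which are made from shared precursors. The mature sequences are from RefSeq (GRCh38.p14), written 5′ to 3′ with the seed in capitals, and none of these miRNAs was measured in the data used here.
let-7a-5p: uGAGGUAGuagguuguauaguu
miR-17-5p: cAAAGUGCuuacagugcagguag
miR-92a-3p: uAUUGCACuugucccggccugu
miR-19b-3p: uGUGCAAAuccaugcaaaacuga
miR-16-5p: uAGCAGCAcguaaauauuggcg
miR-103a-3p: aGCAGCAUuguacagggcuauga
miR-30a-5p: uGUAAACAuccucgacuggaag
miR-10a-5p: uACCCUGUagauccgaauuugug
The seeds of miR-16-5p and miR-103a-3p share their letters with a shift of 1 base, so that a single stretch can match both.

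Among the 30 members named below for their read numbers or their p, 4 had a 3' UTR with exactly 1 match to any of the 8 seeds. Exactly 1 match was also found for 453 of 1945 members matched to a GENCODE 29 transcript, and for 8699 of all 42143 matched transcripts. A single match is thus not particular to these 4, and a link between match and peak was not tested. Their stretches are shown because a lone peak and a single match stand in the same 3' UTR. They are read from the sense strand of GENCODE 29 transcripts (GRCh38) that carry the RefSeq accession listed for the peak, with the match in capitals.
PARS2: ctgatggcccaaaaaCTACCTCaag
NFRKB: gacggacagcagaggTGCTGCTttt
COQ2: attgcacgggttttgGCACTTTaga
CCT6A: ggcctgaagtgagttGTGCAATaaa
The PARS2 stretch on chromosome 1 pairs with the seed of let-7a-5p and starts its match at base 753 of an 836-base 3' UTR. In NFRKB, on chromosome 11, the match to miR-16-5p starts at base 816 of 1089. The COQ2 match to miR-17-5p, on chromosome 4, starts at base 277 of 373, and the CCT6A match to miR-92a-3p, on chromosome 7, starts at base 878 of 904. Whether a match lies under the peak was not determined, since peaks are placed on hg19 and no coordinates were converted.

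Depth differed between libraries more than between treatments. The emetine libraries, 1 to 3, held 40969, 104915 and 97102 reads in all listed peaks, and the control libraries held 39790, 117674 and 103708. Libraries are numbered by the size of their scaling factor and carry no antibody name; read numbers below follow that order. Library 1 of each treatment stood apart: 30.3% of its peak reads with emetine and 31.7% in the control fell in 3' UTRs, against 53.7% to 63.7% in the other 4 libraries. Of 7 genes known from 293 cells, LIN28B, NEFL and VIM had listed peaks, while KRT8, KRT18, NEFM and PAX2 had none. Among 6 markers of blood, liver, fibroblast, endothelial and muscle cells, 0 had a listed peak. A gene without a listed peak may still be expressed, so these counts do not test the identity of the cells.

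Lone 3' UTR peaks were thinly read. A member held a median of 14 reads over the 6 libraries, with quartiles of 12 and 18 and a highest value of 473, and the lowest total of any listed peak was 11. Only 427 members (20.9%) reached 20 reads. The median width was 27 bases, with a range of 2 to 119. Just across the threshold of the rule, the 1732 peaks of 3' UTRs with exactly 2 held a median of 15 reads at the same median width of 27 bases. Peaks of 3' UTRs with 6 or more held a median of 17 reads and spanned 31 bases. These medians stand close to the listing minimum of 11, and the classes differed more at the upper end. The share with at least 20 reads was 20.9% for lone peaks, 26.0% for 3' UTRs with exactly 2 and 38.6% for those with 6 or more, with upper quartiles of 18, 20 and 25 reads.

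Most members rested on 1 or 2 libraries. Reads came from a single library for 947 members (46.3%), from 2 for 544, from 3 for 301, from 4 for 138, from 5 for 78 and from all 6 for 38 (1.86%). Among peaks of 3' UTRs with 2 or more, 20.2% were read in a single library and 4.57% in all 6, and for 3' UTRs with exactly 2 the single-library share was 31.2%. In the median member 93.3% of the reads came from 1 library, against 73.7% in peaks of 3' UTRs with 2 or more. Of the 947 single-library members, 0, 225 and 175 belonged to the emetine libraries and 1, 352 and 194 to the control libraries. Control library 2 alone thus held 352 members that no other library read, with a median of 15 reads each and up to 41.

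**Figure D1:**
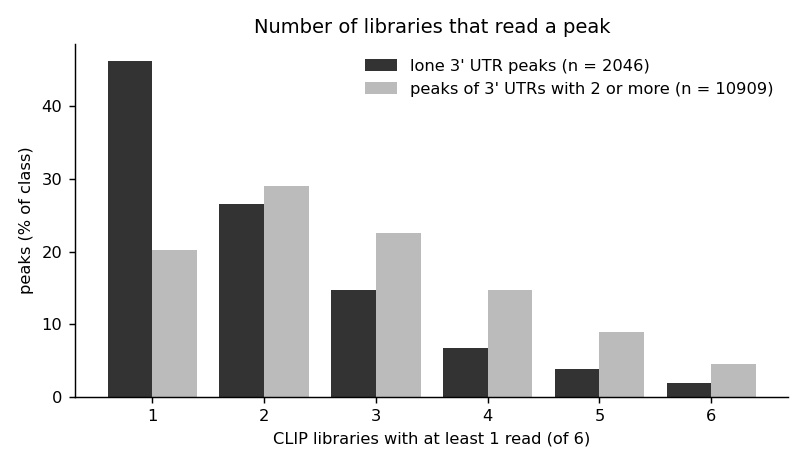
Share of peaks (% of each class) by the number of CLIP libraries, of 6, with at least 1 read, for lone 3' UTR peaks (dark) and for peaks of 3' UTRs with 2 or more (light). The single-library bar is higher for lone peaks (46.3% against 20.2%), and from 2 libraries on the light bars are higher.

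All members met the rule, which counts 3' UTR peaks only, but some had other listed peaks. On 1339 transcripts (65.4%) the lone peak was the only listed peak of any kind, while 707 also had coding or 5' UTR peaks. The 2046 members belonged to 2029 gene symbols, and 51 of them came from genes with 3' UTR peaks on another listed transcript. Only 6 overlapped or touched another listed peak. Members with no other peak on the transcript were read in a single library in 50.5% of cases, those with other peaks in 38.3%. The genes of the members with no other peak had a median of 181 RNA reads with emetine and 69 in the control, and those with other peaks had 375 and 144.

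The 10 most heavily read members were present in 5 or 6 libraries each. MARCH9, which encodes a membrane-bound RING ubiquitin ligase, had its peak at chr12:58153078-58153101 (hg19) with 24, 101 and 105 reads in the emetine libraries against 24, 98 and 121 in the control libraries. The ratio of read totals, scaled for depth, was 1.05 (95% exact binomial interval 0.874 to 1.26), so the treatments overlapped at the highest level of any member. Such intervals cover counting error only. GPR137B, a lysosomal membrane protein, had 25, 111 and 87 emetine reads against 14, 53 and 53 control reads at chr1:236371787-236371834. Each emetine library of GPR137B lay above each control library once scaled, with a ratio of 2.06 (1.65 to 2.60). Its limma log2 change was 1.02 with an SE of 1.09 (adjusted p = 0.784, limma), which does not pass.

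Others of the 10 most read members lay on both sides of the control, and none passed the test. LRIG3, a transmembrane leucine-rich repeat protein, had 17, 46 and 100 emetine reads against 3, 19 and 55 control reads at chr12:59266306-59266342, a ratio of 2.35 (1.78 to 3.13). After scaling, every emetine library of LRIG3 lay above every control library, and the ratio was 1.64 without emetine library 3 and 4.43 without control library 3. GRAMD3 had 5, 77 and 12 reads with emetine against 0, 26 and 26, and the zinc finger gene ZNF800 had 10, 25 and 40 against 0, 37 and 32. For both, control library 1 was empty and the other control libraries fell within or near the emetine range.

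A pair of integrin genes stood on opposite sides of this group. ITGA6, the alpha subunit of laminin receptors, had 5, 62 and 26 reads with emetine against 9, 2 and 12 without it at chr2:173369458-173369489, a ratio of 4.49 (2.82 to 7.43). ITGA5, the alpha subunit of the fibronectin receptor, had 2, 15 and 6 emetine reads against 8, 62 and 22 control reads at chr12:54789044-54789102, a ratio of 0.278 (0.168 to 0.443). The 3 control libraries of ITGA5 lay above all 3 emetine libraries after scaling, whereas those of ITGA6 overlapped with the emetine range. The ITGA6 ratio was 2.56 without emetine library 2 and 2.97 without control library 2, and the ITGA5 ratio was 0.165 without emetine library 2 and 0.513 without control library 2. The limma log2 change was 1.81 (SE 1.45) for ITGA6 and -1.78 (SE 1.45) for ITGA5, and both had an adjusted p of 0.784 (limma). DUS2L, a tRNA dihydrouridine synthase, had 6, 5 and 29 reads with emetine against 4, 60 and 18 without it, and CCT6A, a subunit of the CCT chaperonin, had 3, 37 and 21 against 5, 13 and 41. The treatments overlapped in both.

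**Figure D2:**
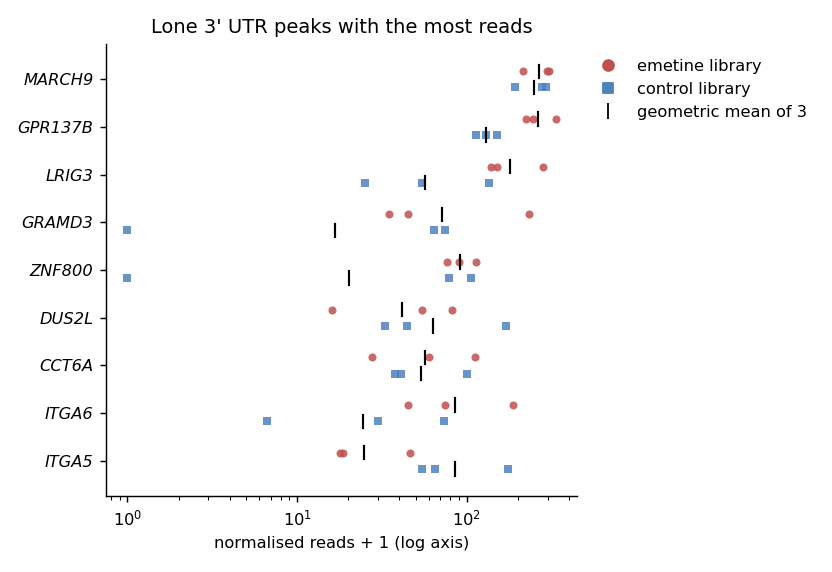
Normalised reads + 1 (reads times the value of 1 read, log axis) of 9 of the 10 lone 3' UTR peaks with the most reads, with emetine libraries as circles above control libraries as squares and a bar at the geometric mean of 3. MARCH9 has its 6 points together, LRIG3 and GPR137B have all circles to the right of all squares, and ITGA5 has them to the left.

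No lone 3' UTR peak passed the test between treatments. In limma on log2(normalised reads + 1) with Benjamini-Hochberg adjustment, 0 members had an adjusted p under 0.05, as did 0 of 22499 peaks tested (0%), with 0.784 as the lowest value. Without adjustment, 14 members (0.684%) had p under 0.05, 9 higher and 5 lower, against 1.07% of all peaks in either direction, 0.769% higher and 0.298% lower. The other tool run, limma-voom, also called 0 and placed 47 members at an unadjusted p under 0.05. The median SE of a member's log2 change was 2.02, which limits what can be detected at this depth. Every emetine library lay above every control library for 32 members, against 2.55% of all peaks, and below for 24, against 1.43%.

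Of the 10 members with the smallest p on the emetine side, 5 were read in all 3 emetine libraries and in no control library. They were chosen by that p, and their values are a description. NUP133, a scaffold protein of the nuclear pore, had 5, 13 and 3 reads with emetine and 0 in each control library at chr1:229577222-229577283, at least 7.78-fold higher when the empty control group is set at a floor of 3 reads in all. PAAF1, a factor that binds proteasomal ATPases, had 2, 21 and 2 against 0 (9.26-fold at the floor, lower limit 6.99). GPAM, the mitochondrial enzyme that starts glycerolipid synthesis, had 1, 13 and 6 against 0 (7.41-fold at the floor, lower limit 5.49). In these 3 genes no control library held a read. MAPK6, an atypical MAP kinase, and ARL10, an ARF-like GTPase, also had 0 control reads, with 34 and 21 emetine reads. NFRKB, a subunit of the INO80 chromatin remodeller, had 6, 0 and 16 reads against 0, and so was empty in emetine library 2.

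Where control reads were present on this side, they were few and fell mostly in control library 3. C1orf123 had 2, 22 and 33 emetine reads against 0, 0 and 3 control reads at chr1:53680000-53680037, a ratio of 21.1 (6.87 to 105). LRCH1, a leucine-rich repeat protein, had 3, 15 and 29 against 0, 1 and 3 at chr13:47327026-47327085, a ratio of 13.1 (4.77 to 49.9). PARS2, the mitochondrial prolyl-tRNA synthetase whose 3' UTR holds the single let-7a-5p match shown above, had 1, 25 and 18 against 0, 0 and 5, a ratio of 9.78 (3.89 to 31.6). Control library 3 of PARS2, scaled, lay above emetine library 1, so the treatments overlapped there, while in LRCH1 and C1orf123 they did not. MTRR, which reactivates methionine synthase, had 4, 13 and 4 reads against 0, 1 and 0. The log2 ratio of RNA reads was -0.23 for C1orf123, 0.27 for LRCH1, 0.61 for PARS2 and 0.11 for NUP133, from 1 RNA library per treatment.

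On the control side, several members were empty in all 3 emetine libraries. ADH5, the formaldehyde-oxidising alcohol dehydrogenase, had no emetine read and 2, 10 and 8 control reads at chr4:99993335-99993394, at least 6.0-fold lower with the empty emetine group set at the same floor. RIMKLA, a synthetase of N-acetylaspartylglutamate, had 0 against 3, 23 and 1 (8.10-fold lower at the floor, upper limit of the ratio 0.163). COQ2, the prenyltransferase of coenzyme Q synthesis, had 0 against 2, 19 and 1 (6.60-fold lower at the floor, upper limit 0.203). RIMKLA and COQ2 had most of their control reads in control library 2. ZNF224, a KRAB zinc finger protein, and C1orf109 were also empty with emetine, with 34 and 38 control reads spread over all 3 libraries. RBM26, an RNA-binding protein, had 0 reads against 5, 17 and 0, and so was missing from control library 3 too.

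B4GALT2, a galactosyltransferase of the Golgi, was the member on this side with the most reads. It had 0, 1 and 2 reads with emetine against 6, 39 and 19 without it at chr1:44456781-44456819, a ratio of 0.0521 (0.0105 to 0.159) with a limma log2 change of -4.41 (SE 1.79, adjusted p = 0.784, limma). All 3 control libraries of B4GALT2 lay above all 3 emetine libraries, and its RNA log2 ratio was 0.18. PRPS1, which makes phosphoribosyl pyrophosphate, had 1, 0 and 0 reads against 3, 8 and 12, and MRPS26, a protein of the small mitochondrial ribosomal subunit, had 0, 3 and 0 against 2, 11 and 12. POGZ, a chromatin protein, had 0, 1 and 0 against 1, 21 and 4. In each of these 3 genes the emetine reads came from 1 library.

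**Figure D3:**
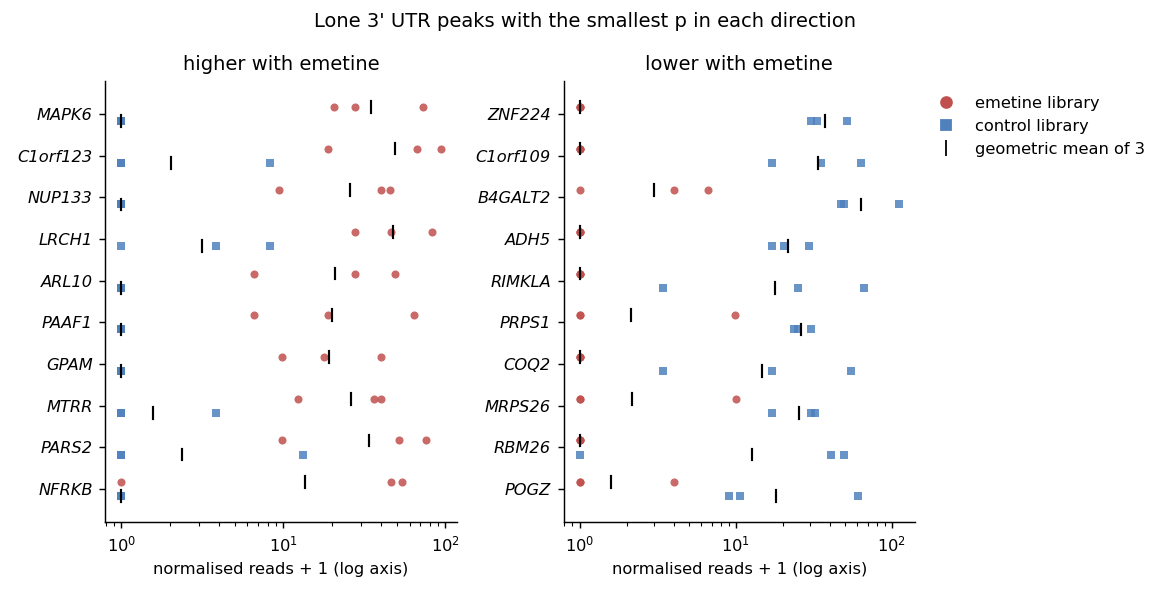
Normalised reads + 1 (log axis) of the 10 lone 3' UTR peaks on each side with the smallest limma p among those with 20 reads or more, with emetine libraries as circles above control libraries as squares and a bar at the geometric mean of 3. Points at 1 are libraries with no read, and adjusted p was 0.784 for all 20.

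Over all members the balance lay slightly to the control side. With emetine 944 members were higher and 1102 lower (46.1% higher), with a median log2 change of -0.35, against -0.14 for peaks of 3' UTRs with 2 or more and 0.01 for all peaks. The share higher was 45.6% for peaks of 3' UTRs with exactly 2 (median -0.23) and 46.2% for those with 2 to 5 (median -0.21). It was 48.4% for those with 6 or more and 50.2% for all peaks. The share of lone peaks was thus not particular to them. The median of the authors' deposited table, which divides by RNA, was -0.34 for the members, -0.15 for peaks of 3' UTRs with 2 or more and 0.05 for all peaks. On ratios of read totals, with totals under 3 reads set at 3, the median log2 was -0.85 for the members, -0.33 for peaks of 3' UTRs with 2 or more and -0.07 for all peaks. No read with emetine was found for 714 members (34.9%) and none in the control for 522 (25.5%). The 810 members read in both treatments had a median log2 change of 0.09. The 219 members read in at least 2 libraries of each treatment had a median of 0.18, with 123 higher and 96 lower.

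The balance differed with the number of reads, in no single direction. The median log2 change was -0.13 for members with 11 to 13 reads (417 higher, 449 lower), -0.64 for 14 to 19 reads (324 higher, 429 lower), -0.43 for 20 to 49 reads (170 higher, 209 lower) and 0.85 for the 48 members with 50 or more (33 higher, 15 lower). Of the 947 members read in 1 library, 400 were higher and 547 lower (42.2% higher), and their change cannot lie near 0, since 1 treatment is empty. Of the 845 read in 2 or 3 libraries 401 were higher and 444 lower, and of the 254 read in 4 to 6, 143 were higher and 111 lower. Without control library 2 or without control library 3 the median over all members was 0, and without control library 1 it was -0.75. Among peaks read in at least 3 libraries it was 0.23, beside 0.22 for all such peaks.

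**Figure D4:**
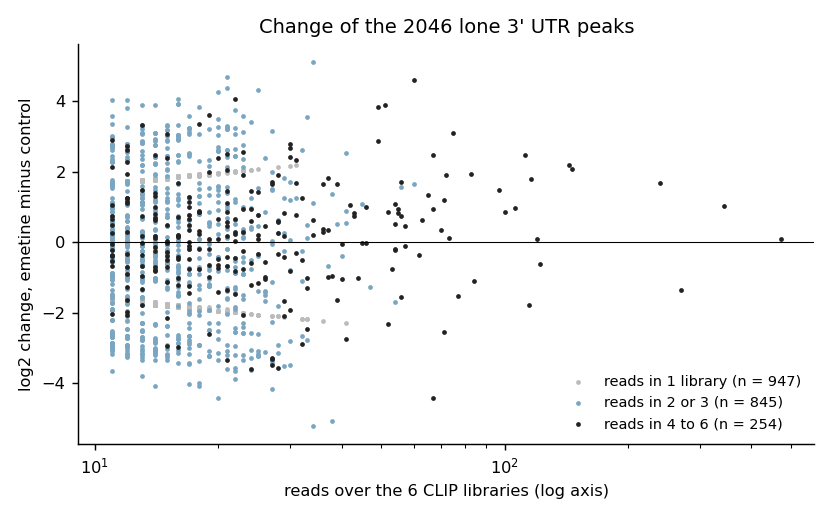
Limma log2 change, emetine minus control, of the 2046 lone 3' UTR peaks against their reads over the 6 CLIP libraries (log axis), coloured by the number of libraries with reads. The 947 single-library members form narrow bands away from 0 on both sides, and the 48 members with 50 reads or more lie mostly above 0 (33 of 48).

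Per library, the share of reads in lone 3' UTR peaks did not separate the treatments. It was 3.00%, 7.86% and 7.0% in the emetine libraries against 3.36%, 9.61% and 7.28% in the control libraries, and the widest Wilson 95% interval, in control library 1, ran between 3.19% and 3.54%. The mean was 5.95% ± 2.60 with emetine and 6.75% ± 3.16 in the control (SD, n = 3 each, two-sided exact permutation p = 0.7, adjusted over 4 measures 0.9). The spread within a treatment, between library 1 and the others, was several times the difference between treatments. Without library 1 of each treatment the means were 7.43% and 8.45%. With 3 against 3 libraries the smallest p this test can give is 0.1.

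The same held relative to other 3' UTR peaks, a measure in which scaling between libraries cancels. The log2 of lone reads over reads in 3' UTRs with 2 or more peaks was -3.19, -2.61 and -2.74 in the emetine libraries, against -3.07, -2.49 and -2.83 in the control libraries, a difference of -0.05 (exact permutation p = 0.8, adjusted 0.9). Against 3' UTRs with 6 or more peaks the difference was -0.06 (exact permutation p = 0.8, adjusted 0.9). Within the members, reads on transcripts with no other listed peak over reads on transcripts with coding or 5' UTR peaks gave a log2 of 0.35, 0.62 and 0.64 in the emetine libraries, against 0.26, 0.93 and 0.64 in the control libraries. That difference was -0.07 (exact permutation p = 0.9, adjusted 0.9), and the treatments overlapped in all 4 measures. Each of these differences changed sign when emetine library 1 or control library 2 was left out.

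Gene families differed in how often their 3' UTR contact was a lone one, beside the 46.9% of all transcripts with a 3' UTR peak. Cytosolic ribosomal protein mRNAs had the highest share of the 15 lists with members, 23 of 29 transcripts (79.3%). Mitochondrial ribosome and respiratory chain mRNAs had 17 of 27 (63.0%), zinc finger genes 76 of 131 (58.0%), and RAB, RAP and ARF GTPases 32 of 58 (55.2%). Between these and the low end stood chaperones (42.1%), solute carriers (40.7%), translation factors (39.1%), proteasome and ubiquitin genes (36.4%), splicing factors (32.5%), ER stress genes (31.8%), deadenylation and decapping genes (26.7%) and short-lived mRNAs (26.1%). At the low end, let-7 targets had 5 of 21 (23.8%), cell cycle genes 7 of 31 (22.6%) and miR-17 family targets 1 of 26 (3.85%), and the Argonaute, GW182 and Dicer list had 0 lone peaks. In each list 0 members had an adjusted p under 0.05 (limma), beside 0% of all peaks.

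As a set, ribosomal protein members had reads in both treatments, though 5 of the 23 were read in 1 library only. Of the 23, 13 were higher and 10 lower with emetine. Their median log2 change was 0.28 beside 0.01 for all peaks, and 264 emetine reads stood against 217 control reads. RPS3, a protein of the small subunit, had 1, 17 and 45 emetine reads against 0, 1 and 11 control reads at chr11:75116675-75116732, a ratio of 5.83 (3.12 to 11.9). The ratio was 3.00 without emetine library 3 and 37.6 without control library 3, so its size rests on single libraries. Control library 3 of RPS3, scaled, lay above emetine library 1, so the treatments overlapped. RPL12, of the large subunit, had 0, 8 and 2 reads against 2, 6 and 12, also with overlapping treatments. Ribosomal protein genes have many processed pseudogenes, and how reads shared with those copies were placed is not given in the sources used here.

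Mitochondrial members lay mostly on the control side. Of 17, 5 were higher and 12 lower, beside 944 higher and 1102 lower among all members, and 6 were read in 1 library. The median log2 change was -1.60, beside -0.35 for all members. That value is the one given by 11 reads in control library 3 and none elsewhere, so it does not measure the size of a decrease. The list held 86 reads with emetine against 189 in the control. NDUFA2, a subunit of respiratory complex I, had 0, 0 and 1 reads with emetine against 0, 19 and 3 without it, and ATP5J2, a subunit of ATP synthase, had 0, 4 and 2 against 2, 0 and 18. MRPS26, given above, was the most read of the list, and none of the 17 passed the test.

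Zinc finger members were the most numerous. Of 76, 36 were higher and 40 lower, at a median log2 change of -0.39, and 42 of them were read in 1 library. ZNF543 had 1, 0 and 22 emetine reads against 0, 22 and 0 control reads, so that nearly all of its reads came from 1 library of each treatment. These genes have many paralogs with like sequence. Among 32 small GTPase members, 19 were higher and 13 lower, at a median log2 change of 0.40. RAB4A, a GTPase of early endosomes, had 0, 0 and 1 reads with emetine against 0, 24 and 0 without it, and RAB2A, a GTPase of the Golgi, had 30 reads in emetine library 2 and none elsewhere.

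Solute carriers had 35 members, 18 higher and 17 lower. SLC22A5, the carnitine transporter, was read in all 6 libraries with 1, 25 and 10 reads with emetine against 1, 14 and 4 without it, a ratio of 2.11 (1.18 to 3.89) that was 1.10 without emetine library 2 and 4.82 without control library 2. SLC40A1, the iron exporter ferroportin, had 0, 19 and 13 against 0, 0 and 28, and SLC25A3, the mitochondrial phosphate carrier, had 0, 11 and 2 against 0, 12 and 7. The treatments overlapped in all 3.

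Stress and short-lived mRNAs contributed few members. ATF3, a stress-induced transcription factor, had 0, 9 and 15 reads with emetine and 0 in each control library, at least 8.89-fold higher, while its RNA had 236 against 41 reads, a scaled log2 ratio of 1.18. The deposited table of the authors, relative to RNA, gave a log2 ratio of 2.24 for this peak. JUND, a subunit of the AP-1 transcription factor, had 2, 1 and 7 reads against 2, 8 and 13 and was read in all 6 libraries. DNAJC3, an inhibitor of eIF2 kinases, had 33 reads in control library 2 and none elsewhere, and SEL1L, of the ER degradation machinery, had 3, 13 and 0 against 0, 0 and 5. Of the 6 short-lived and immediate early members 2 were higher, and of the 7 ER stress members 2 were higher.

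Members from the machinery of mRNA decay, translation and the cell cycle were also read in few libraries. Of the 4 deadenylation and decapping members 3 were higher with emetine, of the 7 cell cycle members 4, of the 5 let-7 targets 3, and the 1 member of the miR-17 target list was lower. XRN1, the 5' to 3' exonuclease, had 3, 25 and 0 emetine reads against 0, 28 and 0 control reads, equal totals of 28. CNOT4, a ubiquitin ligase of the CCR4-NOT complex, had 0, 17 and 5 against 0, 16 and 0. EIF4G3, an initiation scaffold, had 0, 14 and 7 against 0 in each control library, and EIF4B had 3, 0 and 8 against 0, 0 and 9. CDK2, the kinase of the G1 to S transition, had 0, 20 and 1 against 0 in each control library, and CDK12 had 1, 13 and 0 against 0, 0 and 6. CDC37, an Hsp90 co-chaperone of kinases, had 0, 0 and 6 against 1, 15 and 1. E2F5, a transcription factor of the let-7 target list, had 1, 25 and 16 against 0, 5 and 2, a ratio of 6.67 (2.97 to 17.6). That ratio was 4.61 without emetine library 2 and 14.1 without control library 2. Control library 2 of E2F5, scaled, lay above emetine library 1, so the treatments overlapped. E2F5 was read in 5 libraries, the others in 2 to 4.

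The 3' UTRs that carried lone peaks were shorter than those with more peaks. By RefSeq accession 1945 of 2046 members (95.1%) were matched to a GENCODE 29 transcript. The median 3' UTR length was 1293 bases for members (quartiles 582 and 2631), 1831 for transcripts with 2 to 5 peaks and 2616 for those with 6 or more. Transcripts with coding peaks but no 3' UTR peak had a median of 732, close to the 717 of all 42143 matched transcripts. Longer 3' UTRs can hold more peaks, so length and the rule are not independent.

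The share of 3' UTRs with a seed match followed the same order. A match to at least 1 of the 8 seeds was found in 62.4% of the members' 3' UTRs, in 76.9% of those with 2 to 5 peaks, in 82.3% of those with 6 or more, in 48.7% of those with coding peaks alone and in 46.9% of all matched transcripts. Per kilobase the order was another one: members had 0.864 matches, against 0.991 for 2 to 5 peaks, 1.07 for 6 or more, 0.916 for transcripts with coding peaks alone and 0.866 for all matched transcripts. Matches were searched on the transcript strand as the complements of the seeds, and a stretch could count for 2 families. CTACCTC of let-7 was present in 9.7% of the members' 3' UTRs against 7.4% of all, GCACTTT of miR-17 in 23.9% against 16.4%, and GTGCAAT of miR-92a in 12.4% against 8.2%. TTTGCAC of miR-19 stood in 15.9% against 11.1%, TGCTGCT of miR-16 in 23.2% against 17.6%, ATGCTGC of miR-103 in 13.7% against 9.9%, TGTTTAC of miR-30 in 18.8% against 12.6% and ACAGGGT of miR-10 in 13.9% against 9.0%. All 8 shares were higher in members, whose 3' UTRs were also longer.

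Within the members, length and match density followed the number of libraries in opposite orders. Members read in 1 library had a median 3' UTR length of 1556 bases and 0.825 matches per kilobase, those read in 2 or 3 had 1181 bases and 0.885, and those read in 4 to 6 had 853 bases and 1.02. The density of the last group lay between those of 3' UTRs with 2 to 5 and with 6 or more peaks. By family, GCACTTT of miR-17 had 0.159 matches per kilobase in members read in 1 library, 0.189 in those read in 2 or 3 and 0.251 in those read in 4 to 6, while ACAGGGT of miR-10 had 0.099, 0.073 and 0.051 in the same order. The median RNA level of the genes, as the mean of scaled reads in both RNA libraries per kilobase of transcript, was 137, 189 and 241 in these classes, against 223 for transcripts with 2 to 5 peaks and 312 for 6 or more. The part of RNA level in these differences was not tested.

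**Figure D5:**
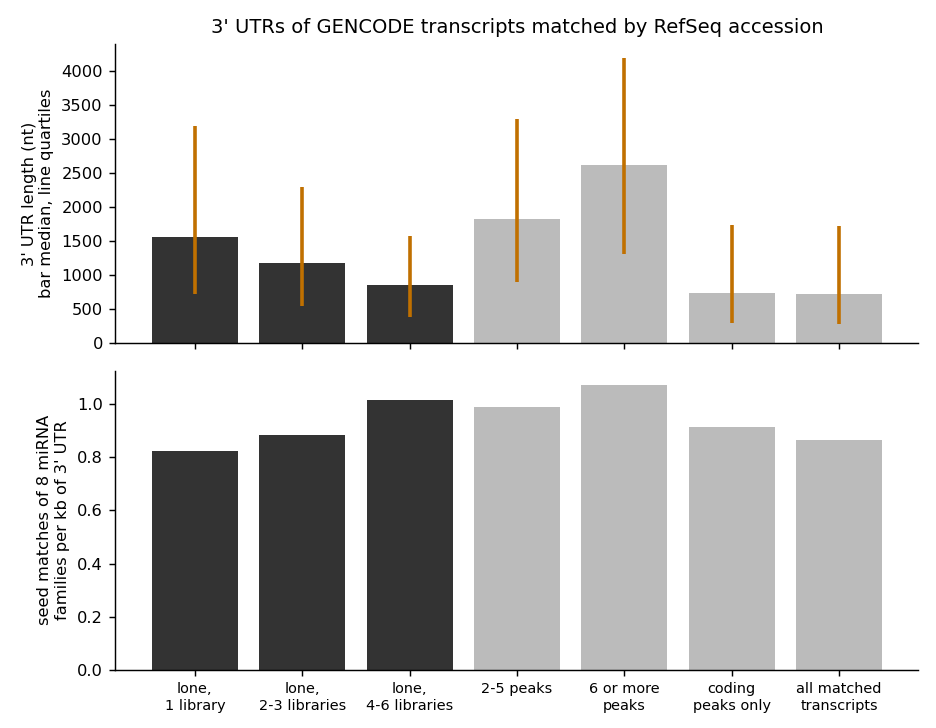
Median 3' UTR length in nucleotides with quartile lines (top) and seed matches of 8 miRNA families per kilobase of 3' UTR (bottom) for lone 3' UTR peaks by the number of libraries that read them (dark) and for other transcripts (light). Among lone peaks the class read in 4 to 6 libraries has the shortest 3' UTRs, with a median of 853, and the highest match density, 1.02.

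RNA ratios of genes with a lone peak were centred like those of all listed genes. The 2 RNA libraries held 3637536 reads with emetine and 1498950 in the control over 6319 listed genes. Over 2029 genes with a lone peak the median log2 ratio of emetine over control was 0.01 after scaling. For the 1820 with at least 50 reads it was 0.018, beside 0.0061 for all 5808 listed genes with as many, and the ratios had an SD of 0.33 over genes. The scaling centres such medians near 0, so they do not show that the RNA level stayed the same. With 1 RNA library per treatment there is no replicate check. Of these 1820, 9 lay above 1 (0.495%), against 0.844% of all listed genes with as many reads, and 5 below -1 (0.275%), against 0.792%.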

How the data were processed

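The members and gene lists were chosen with earlier results of these data known. Per the file headers, the authors deposited 1 table of peaks on hg19 with an average and a ratio; the deposited values fit the natural log and were divided by the natural log of 2 for log2 values. Tools named in the submitters' processing notes are Bowtie 0.12.8, TopHat and DESeq, without roles; the peak caller is not given in the sources used here. Each treatment's value equals the mean over 3 CLIP libraries of ln(1 + reads × factor) minus the same logarithm for RNA. Whole reads that satisfy this were searched and found for 22499 of 22506 peaks, all members included, within 2e-14 (1e-13 for genes with 3 or more peaks). Shifted values of single-peak genes matched by chance in 60 of 2528 with emetine and 74 in the control. For the emetine CLIP libraries a read counted as 8.86, 3.00 and 2.81, for the control ones as 8.00, 2.82 and 2.43, and for RNA as 2.51 with emetine and 6.37 without. No antibody could be assigned to a library.

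All recovered peaks entered limma 3.58.1 (R 4.3.3), limma-trend on the log2 of normalised reads + 1, treatment as the only term, no filter, and Benjamini-Hochberg adjustment at 0.05. Read totals were divided by each treatment's summed inverse factors before taking ratios, with 95% exact binomial intervals and a floor of 3 reads per group where a group had 0. Library measures were compared by exact permutation over libraries with scipy 1.17.1 (Python 3.11.15). Seed matches were searched in 3' UTRs of GENCODE 29 transcripts joined by RefSeq accession. Named members, all with at least 20 reads, were the 10 with the most reads, the 10 on each side with the smallest p and up to 3 per list with the most reads; some of these are not reported here. Alternatives were other added constants (0.5 and 5), filters, scaling by totals, limma-voom, other definitions of lone and leaving out each library. The limma step and the search were tested on simulated data. The search returned the right reads for nearly all simulated peaks, whereas the limma step missed most of the simulated 4-fold and 8-fold changes.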

Additional observations from a re-analysis of the deposited data

How the results depend on the processing

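The count of 0 called members held with added constants of 0.5 and 5, both filters on low values, scaling by totals, limma-voom, either other definition of lone, and without any 1 library. It had little room to move, since the lowest adjusted p over these fits lay between 0.757 and 0.979, and says little on stability. The median log2 change of the members, -0.35, was 0.23 among peaks read in at least 3 libraries, and ranged from -0.75 to 0 when libraries were left out; the cause was not tested. The difference in the share of peak reads, -0.80 percentage points, ranged from -2.49 to 0.68. The log2 differences of lone reads ranged from -0.18 to 0.12 against 3' UTRs with 2 or more peaks, from -0.26 to 0.15 against those with 6 or more, and from -0.25 to 0.088 between members without and with other listed peaks. In this order they were 0.68, 0.12, 0.15 and 0.022 without emetine library 1 and 0.63, 0.11, 0.15 and 0.088 without control library 2. The medians of the deposited ratio and of the RNA ratio kept to within their spread under each alternative. Of the values for single named members under these alternatives, 421 stayed within their spread and 32 moved, and 0 members became called. That spread was wide, so staying within it says little on stability. The log2 change of MAPK6 counted as staying at 5.12 and, with a constant of 5, at 2.97. So did the E2F5 ratio at 6.67 and, without control library 2, at 14.1. With 1 library left out, the ratio of totals crossed 1 for GRAMD3, DUS2L, CCT6A, XRN1, CNOT4, CDC37, CDK12, EIF4B, ATP5J2, ZNF543, SLC40A1 and SLC25A3, among the members described. Reads limit the precision: only 427 members held 20 or more. No paired analysis was run, because the sample titles name antibodies but the deposited values carry no antibody or replicate number. The difference between library 1 and the others therefore stayed within the spread of every test.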

Other observations

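A few genes with a lone peak had large RNA ratios, given here as values of 1 library per treatment with exact binomial 95% intervals. The zinc finger gene ZNF853 had 60 RNA reads with emetine against 5 without it (log2 ratio 2.21, interval 0.94 to 3.91), and PPP1R3D, a regulatory subunit of protein phosphatase 1, had 53 and 7, a log2 ratio of 1.55 (0.43 to 2.96). KHK, the fructokinase, had 47 and 7 (log2 1.38), and HIST2H2AB, a replication-dependent H2A histone, had 96 and 17 (log2 1.15). On the other side GABARAP, a ubiquitin-like protein of autophagosomes, had 88 RNA reads with emetine against 95 without it (log2 ratio -1.45, interval -1.89 to -1.02). CTSD, the lysosomal protease cathepsin D, had 53 and 45, a log2 ratio of -1.10 (-1.71 to -0.50). These genes were chosen after their values were seen.

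Other lists gave mixed directions. Of 8 chaperone members 3 were higher and 5 lower with emetine; among them DNAJB4, a heat shock protein, had 0, 0 and 14 reads with emetine against 0, 1 and 6 without it. The translation factor list had 9 members, 6 higher and 3 lower with emetine, and 90 reads stood against 46. Splicing factors had 13, with 6 higher and 7 lower; HNRNPL, an RNA-binding splicing regulator, had 0, 9 and 13 reads with emetine and 0, 0 and 1 in the control, a ratio of 24.4 with a counting interval of 3.95 to 1009, while SRSF12 had 21 reads in control library 2 and none elsewhere. The proteasome and ubiquitin list had 8 members, 4 higher and 4 lower, and PSMB1, a proteasome core subunit, had 1, 8 and 10 reads against 0, 0 and 11.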
